A study of Homo sapiens with 15 samples.

Results

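The genes described here are 33 established transcriptional targets of the tumour suppressor p53, chosen by symbol from the 57820 gene identifiers of an RNA-seq series on human acute myeloid leukemia (AML) cell lines. The rule that selects them uses symbols and no measured value, but the list was drawn up with earlier results of these data known. The question asked of them was at what level each line carried these transcripts and how that level responded when RNF5 was depleted. RNF5 is a ubiquitin ligase of the endoplasmic reticulum membrane. MOLM-13, U937 and HL-60 cells had been transduced with the empty lentiviral vector pLKO or with a short hairpin RNA against RNF5 (shRNF5), and cells carrying the empty vector were the control in each line. MOLM-13 gave 3 pLKO and 2 shRNF5 libraries, U937 gave 2 of each and HL-60 gave 3 of each, 15 in all. No control hairpin was included among these libraries, and which RNF5 hairpin was sequenced is not given in the sources used here. Harvest is placed at 7 days by the sample labels and at 5 days by the series design. The labels call the libraries triplicates or replicates without naming separate cultures, so p-values measure only the spread between these libraries, which may be technical.

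p53 is a DNA-binding transcription factor that is kept low in unstressed cells, because MDM2 marks it for degradation and MDM4 blocks its activity. When DNA damage or other stress frees it, p53 raises genes that stop the cell cycle, repair DNA, alter metabolism or start cell death, and MDM2 itself, which closes the loop. Many of the target genes also answer to other transcription factors.

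The values are normalized read counts, scaled by the authors within each line and rounded, with 0 entered for a gene that did not pass their filter. Of the 33 genes, 31 had values above 0 in MOLM-13, and 27 did in U937, 29 in HL-60 and 26 in all 3 lines. PERP, a membrane protein of epithelial cell death, and SPATA18, a protein of mitochondrial quality control, were listed at 0 in all libraries. GDF15 was listed at 0 in U937 and HL-60. TP53I3, TP53INP1 and PLK2 were listed at 0 in U937, and PHLDA3 in HL-60. From the spacing between rounded values, the reads counted per library were estimated at 9700000 to 63100000 for MOLM-13, 14000000 to 20500000 for U937 and 13300000 to 21400000 for HL-60. In MOLM-13 both shRNF5 libraries, at 63100000 and 24400000 reads, were deeper than the 3 pLKO libraries, whose highest was 15300000, and the part of this difference in the MOLM-13 results was not tested. RNF5 itself was 1223, 1017 and 1020 with pLKO and 76 and 81 with shRNF5 in MOLM-13. In U937 it was 648 and 843 against 46 and 74, and in HL-60 it was 506, 689 and 545 against 37, 133 and 43, so every shRNF5 library lay below every control of its line.

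p53 binds DNA as a tetramer at a response element made of a pair of adjoining decamers. The p53 response element consensus of 20 bases, without a spacer and with at most 2 mismatches, was sought within 2500 bases on either side of the annotated start of each gene on GRCh37. The consensus is its own reverse complement, so a single scan covers both strands. Of the 32 genes with a window, 14 held a match (43.8%), against 1646 of 14397 genes above 0 (11.4%). The sets are not quite alike, since the 32 include PERP and SPATA18, at 0 in all libraries. SPATA18 is among the 14 with a match. Genes enter lists of p53 targets partly because such elements were found near them, so this share is a description of the list. FAS had no window. The matches of genes that the results below turn on are given with 5 flanking bases on each side, on the forward strand of GRCh37, with bases that match the consensus in capitals. ZMAT3 and PLK2 are added because their matches had 0 mismatches, and CDKN1A, which encodes the cell cycle inhibitor p21, as the best known p53 target outside the 33. A match to the letters is not a measured binding site.
MDM2: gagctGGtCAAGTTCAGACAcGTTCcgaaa
MDM4: cttgaGtGCTTGTTTGAAaATGCTTgtttt
CCNG1: tgtgaGcACAAGCCCAGGCTAGTCCgaggc
GADD45A: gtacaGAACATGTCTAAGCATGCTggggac
BTG2: gggtcAcGCATGTTCAGGCATGCaTggaat
AEN: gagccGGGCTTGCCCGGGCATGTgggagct
TP53I3: gcaaaAAACATGTCTGAGgATGTaTaagga
ZMAT3: tgcctAGGCATGTCTGGACTTGTTTtatga
PLK2: gtgcaGGGCAAGTCCAGGCATGTTTctcat
CDKN1A: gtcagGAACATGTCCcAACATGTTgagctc

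The matches lay both inside and ahead of the genes. The MDM2 match at chr12:69202703-69202722 was in intron 1, 756 bases past the start of the canonical transcript. MDM4 (chr1:204486061-204486080) and the closer of 2 matches of CCNG1 (chr5:162864932-162864951) were also in intron 1, at 537 and 341 bases. The GADD45A match (chr1:68152458-68152477) was in intron 3, and the ZMAT3 match (chr3:178787976-178787995) in intron 1 of a gene on the reverse strand. Upstream matches were found for BTG2 (chr1:203272770-203272789), 1867 bases before the start, and for AEN (chr15:89164537-89164556), 24 bases before it. TP53I3 (chr2:24309651-24309670) and PLK2 (chr5:57758101-57758120) are on the reverse strand and had their matches 1957 and 2198 bases upstream. That of CDKN1A (chr6:36644226-36644245) was 2255 bases upstream of the start of the canonical transcript. RRM2B also held a match, with 1 mismatch, which is not shown. Among the other genes called within a line below, the nearest approach to the consensus had 3 mismatches in TP53INP1, NINJ1, DRAM1 and RPS27L and 4 in EI24, SESN1 and CYFIP2.

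In control cells the p53 targets as a group stood higher in MOLM-13 than in the other lines. The levels compared here are normalized read counts per 1000000 of the library's sum, which set lines side by side that the authors normalized separately, so they carry no test. In 15 of the 31 genes above 0 in any line, all 3 MOLM-13 pLKO libraries lay above every pLKO library of U937 and HL-60, which held for 15.6% of all 14904 genes above 0. The 15 include GDF15, listed at 0 in both other lines, so the filter fixed its rank. They also include TP53I3, TP53INP1 and PLK2, at 0 in U937, and PHLDA3, at 0 in HL-60, whose rank over that line was fixed likewise. The share over all genes was taken by the same rule. The median ratio of MOLM-13 to U937 over the 27 genes above 0 in U937 was 1.65, and 20 of the ratios were above 1, whereas the median over all genes was 0.933 and 46.1% were above 1. Against HL-60 the median over 29 genes was 2.20 with 25 above 1, and over all genes it was 1.00 with 50.2% above 1. U937 against HL-60 gave a median ratio of 1.24 over 26 genes, with 16 above 1, beside 1.103 and 54.8% over all genes.

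**Figure D1:**
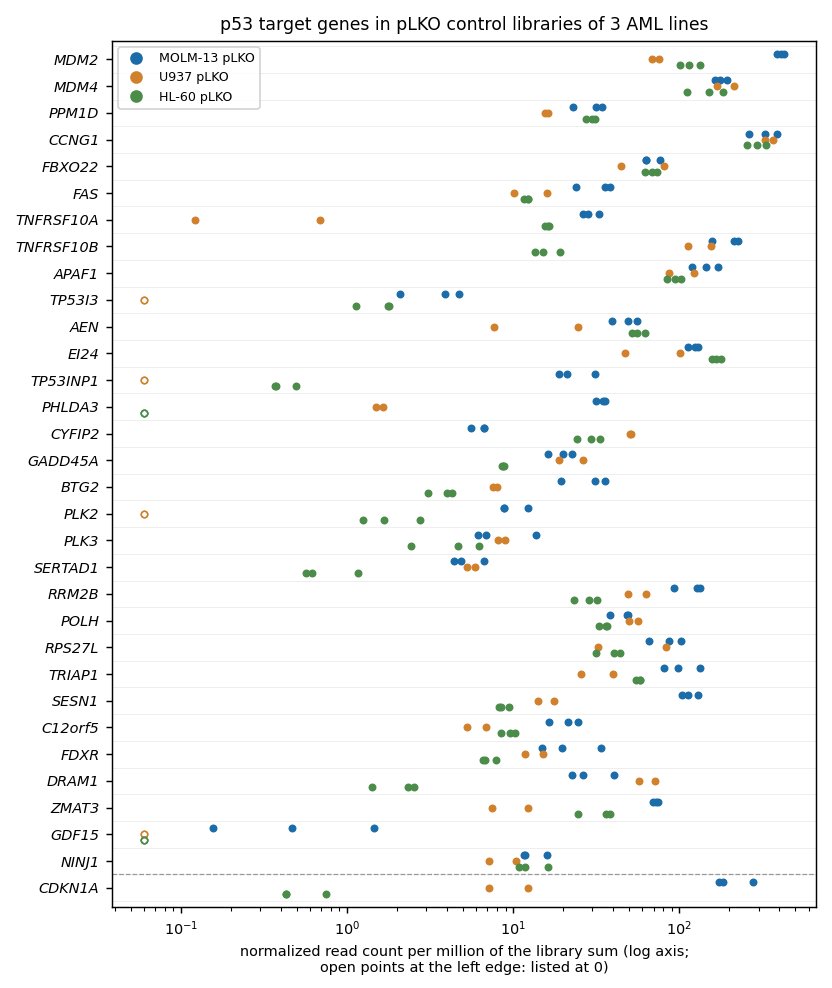
Level of each p53 target above 0 in any line, and of CDKN1A, in the pLKO control libraries (1 point per library, colour by line), as normalized read count per 1000000 of the library sum on a log axis. Open points at the left edge are genes listed at 0 in that line. MDM2, SESN1, ZMAT3 and BTG2 lay apart in MOLM-13 on the high side, MDM4, CCNG1 and FBXO22 were close together in all 3 lines, and CYFIP2 was lowest in MOLM-13.

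The negative regulators of p53 did not share a pattern. MDM2 averaged levels of 409 ± 20.04 (SD, n = 3), 72.2 ± 5.18 (SD, n = 2) and 116 ± 16.1 (SD, n = 3) in MOLM-13, U937 and HL-60. The other levels rest on the same numbers of libraries. The MDM2 libraries did not overlap between any of the lines. MDM4 averaged 179, 192 and 149 and CCNG1, which encodes cyclin G1, a partner of a phosphatase that acts on MDM2, averaged 327, 347 and 294, with libraries that overlapped between lines. FBXO22, an F-box protein that targets p53 and other substrates, averaged 67.4, 62.8 and 67.7. PPM1D, the WIP1 phosphatase that reverses damage signals, averaged 29.7, 15.8 and 29.4.

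Larger differences were found among the death receptors and effectors. TNFRSF10B, the TRAIL receptor DR5, averaged levels of 199 ± 36.2, 134 ± 30.4 and 15.98 ± 2.94 (SD) in MOLM-13, U937 and HL-60. TNFRSF10A, the TRAIL receptor DR4, averaged 29.1 and 16.1 in MOLM-13 and HL-60 and was near the floor in U937, with normalized read counts of 2 and 11. FAS, the receptor for Fas ligand, averaged 32.6 ± 7.71 in MOLM-13, above 13.1 ± 4.18 and 12.1 ± 0.328 (SD) in the other lines, which overlapped each other. TP53INP1, a stress protein that promotes p53 activity and autophagy, averaged 23.6 in MOLM-13 and 0.411 in HL-60, and PHLDA3, a repressor of AKT, averaged 33.9 in MOLM-13 and 1.57 in U937. CYFIP2, a subunit of the WAVE actin regulator, went the other way, at 6.31 ± 0.667, 50.9 ± 0.0747 and 29.0 ± 4.64 (SD).

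SESN1, a sestrin that restrains mTORC1, averaged levels of 115 ± 12.8, 15.9 ± 2.56 and 8.72 ± 0.674 (SD) in MOLM-13, U937 and HL-60. RRM2B, the p53-inducible subunit of ribonucleotide reductase, ran in the same order at 118 ± 22.3, 56.0 ± 9.63 and 27.9 ± 4.50 (SD), as did the antiproliferative gene BTG2 at 28.8 ± 8.44, 7.75 ± 0.281 and 3.78 ± 0.626 (SD). In none of these 3 genes did the pLKO libraries of different lines overlap. ZMAT3, an RNA-binding regulator of splicing, averaged 72.2 ± 2.66 in MOLM-13 against 9.88 ± 3.46 in U937 and 32.9 ± 7.25 (SD) in HL-60. DRAM1, a lysosomal protein of autophagy, was highest in U937 at 64.6 ± 10.03, with 29.8 ± 9.53 in MOLM-13 and 2.08 ± 0.596 (SD) in HL-60. CDKN1A, outside the 33 genes, averaged 211 in MOLM-13 and 9.69 in U937, and its normalized read counts in HL-60 were 12, 7 and 7.

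RNF5 depletion was then compared with pLKO within each line with limma on log2(normalized read count + 1), a scale that understates the change of low genes. To be called, a gene needed an adjusted p-value under 0.1 by the Benjamini-Hochberg method over all genes above 0 in the line, together with an absolute log2 fold change over 0.4. BTG2 was the only one of the 33 genes called in the same direction in all 3 lines. AEN was called up in U937 and down in HL-60, and 13 of the genes were above 0 in every line and called in none. How many of all genes showed these patterns was not counted, so the patterns are not read as particular to the 33. Changes in bulk RNA cannot tell a change in every cell from a change in the share of cells that carry the transcript.

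In MOLM-13, 1 of 31 genes was called up, beside 1.03% of all 13026 genes, and 0 were called down, beside 1.01%. At an unadjusted p under 0.05 the limma fit held 7 of the 31 genes and 2213 of the 13026. BTG2, which recruits the CCR4-NOT deadenylase and slows proliferation, was 792, 503 and 894 with pLKO and 1498 and 2549 with shRNF5. Both knockdown libraries stood above all controls, with means of 729.7 ± 202.8 (SD, n = 3) and 2023.5 ± 743.2 (SD, n = 2) and a log2 fold change of 1.46 (SE 0.30, limma adjusted p = 0.0844). The call was lost without pLKO replicate 2 or 3 or without either shRNF5 library, with limma adjusted p up to 0.512 over all alternatives and a log2 fold change between 1.08 and 1.85. Without a mean-variance trend it was lost as well.

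The direction of the 31 genes in MOLM-13, BTG2 included, leaned one way, though no gene other than BTG2 passed. The log2 fold change was above 0 in 27 of 31 genes (87.1%) with a median of 0.26, whereas 50.8% of all genes were above 0 and their median was 0.01. Over 13 alternatives the number above 0 was between 25 and 27 and the median between 0.24 and 0.30. The 4 genes below 0 were FAS, GADD45A, TRIAP1 and FDXR.

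All 5 feedback regulators were above 0. MDM2 was 10956, 10585 and 9686 with pLKO and 13894 and 14622 with shRNF5, so the groups did not overlap. Its log2 fold change of 0.46 (SE 0.13) had a limma adjusted p of 0.157. MDM4, at 4519, 4260 and 4834 against 5348 and 5124, gave 0.21 (SE 0.13, limma adjusted p = 0.437).

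FAS was 608, 991 and 884 with pLKO against 454 and 450 with shRNF5, with both knockdown libraries below the controls. Its log2 fold change was -0.84 (SE 0.23, limma adjusted p = 0.138), and the call was made without pLKO replicate 1. TNFRSF10B, at 5465, 4078 and 5618 against 5691 and 6466, gave 0.28 (SE 0.17, limma adjusted p = 0.437). TNFRSF10A was 722, 677 and 815 against 927 and 916. Thus the TRAIL receptors lay slightly above and FAS below the controls, none past the test.

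Among effectors, TP53INP1 was 541, 486 and 769 against 861 and 1387 (log2 fold change 0.90, SE 0.27, limma adjusted p = 0.169). DRAM1 was 671, 584 and 1012 against 1164 and 1781 (0.97, SE 0.27, limma adjusted p = 0.156). In both genes the groups did not overlap but the shRNF5 libraries were far apart, and the deeper library, replicate 1, was the lower. TP53I3, a quinone oxidoreductase, was 99, 54 and 118 against 111 and 216, and GDF15, a secreted stress cytokine, was 4, 12 and 36 against 15 and 55, with overlapping groups. AEN, EI24, CCNG1, CYFIP2, GADD45A, RRM2B, SESN1, RPS27L, NINJ1, PPM1D, PLK3 and C12orf5, which are called elsewhere below, had log2 fold changes between -0.155 and 0.38 in MOLM-13.

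**Figure D2:**
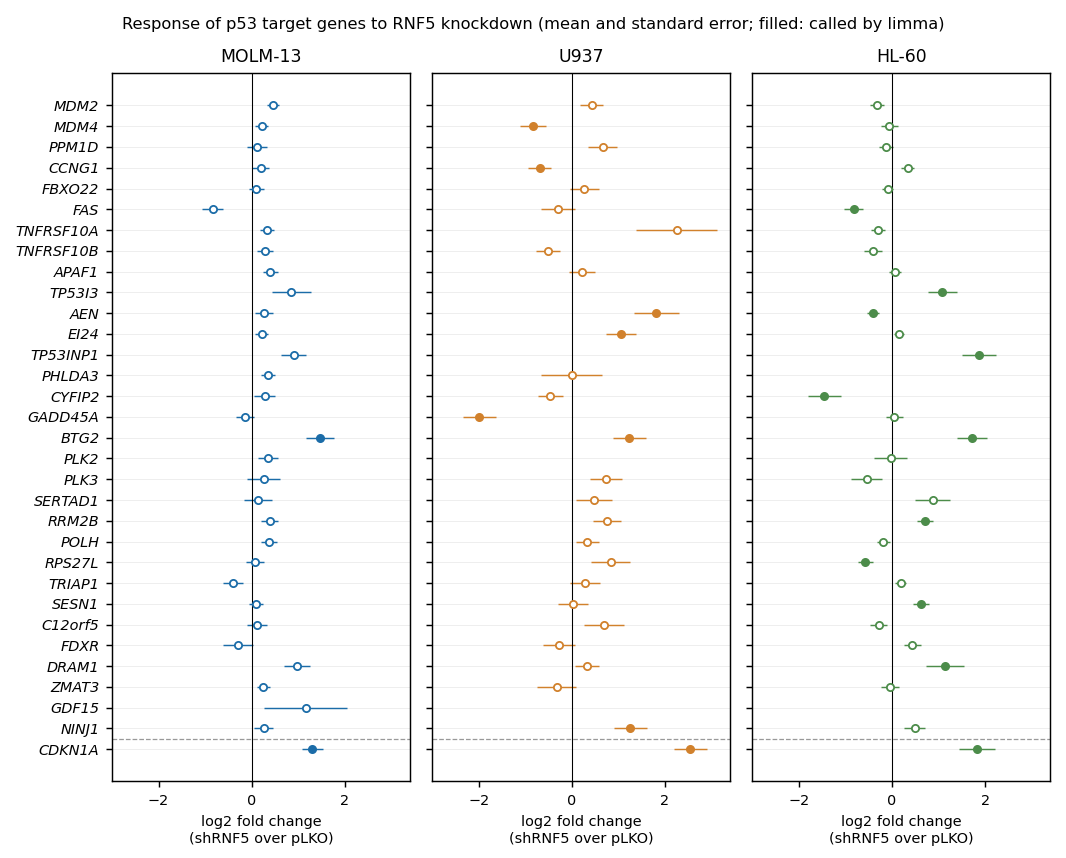
Log2 fold change of each p53 target and of CDKN1A (shRNF5 over pLKO, on the log2(normalized read count + 1) scale) in the 3 lines, with the standard error from limma as a horizontal bar. Filled points passed the threshold, and genes listed at 0 in a line have no point. Only BTG2 among the 33 genes is filled in MOLM-13, and GADD45A reaches -1.99 in U937 but 0.05 in HL-60.

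In U937, 4 of 27 genes were called up and 3 were called down, beside 6.92% and 8.74% of all 13165 genes. The genes that rose were AEN, BTG2, EI24 and NINJ1, and those that fell were GADD45A, MDM4 and CCNG1. The log2 fold change was above 0 in 18 of 27 genes (66.7%) with a median of 0.33, beside 50.3% and 0.00 over all genes, and over 10 alternatives the number ranged from 17 to 19. With 2 libraries a group the calls rested on each library. The share of all genes called in the fits that follow was not counted. Leaving out pLKO replicate 2 or either shRNF5 library left 0 of the 33 genes called in either direction, and a fit without a mean-variance trend left 0 up and 1 down. Without pLKO replicate 3, AEN, EI24 and GADD45A kept their calls, BTG2, NINJ1, MDM4 and CCNG1 lost theirs, and RPS27L and TNFRSF10A were called up and TNFRSF10B down.

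GADD45A, which binds PCNA and stress kinases and arrests growth after damage, was 431 and 301 with pLKO and 84 and 97 with shRNF5. Its log2 fold change of -1.99 (SE 0.36, limma adjusted p = 0.0197) made it the gene of the 33 with the lowest fold change in U937. MDM4 was 3535 and 2699 against 1447 and 2070 (-0.84, SE 0.27, limma adjusted p = 0.0832), and CCNG1 was 6054 and 5226 against 3208 and 3771 (-0.69, SE 0.24, limma adjusted p = 0.0985). The groups did not overlap in any of these genes. CCNG1 also missed the threshold after rescaling the libraries by the median of ratios.

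MDM2, the partner of MDM4, was not called, at 1250 and 1098 with pLKO and 1632 and 1511 with shRNF5. Its log2 fold change of 0.42 (SE 0.24) had a limma adjusted p of 0.284. PPM1D was 266 and 248 against 472 and 352, a log2 fold change of 0.66 (SE 0.31, limma adjusted p = 0.198).

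BTG2 rose from 131 and 121 to 351 and 250 (1.23, SE 0.35, limma adjusted p = 0.0615), and NINJ1, a membrane protein that ruptures dying cells, from 172 and 115 to 306 and 369 (1.25, SE 0.35, limma adjusted p = 0.0591). In both, the shRNF5 libraries were all above the controls. AEN, an apoptosis-enhancing nuclease, was 126 and 395 with pLKO against 1018 and 603 with shRNF5 (1.81, SE 0.48, limma adjusted p = 0.0511). EI24, a protein of the endoplasmic reticulum linked to autophagy and cell death, was 780 and 1612 against 2391 and 2266 (1.05, SE 0.33, limma adjusted p = 0.0751). The U937 controls were far apart in these last genes, with replicate 2 the lower, as they were in RPS27L, a ribosomal protein paralog, at 533 and 1339 against 1142 and 1975.

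TNFRSF10A had the highest fitted fold change in U937, 2.25 (SE 0.87), from 2 and 11 to 23 and 33. The values are near the detection floor and the limma adjusted p was 0.13. TNFRSF10B was 2564 and 1804 against 1517 and 1500 (-0.51, SE 0.26, limma adjusted p = 0.226), and FAS was 167 and 257 against 153 and 186. DRAM1 was 1181 and 921 against 1220 and 1407, CYFIP2 839 and 814 against 544 and 659, and RRM2B 1035 and 788 against 2012 and 1157. PLK3, a polo-like stress kinase, was 134 and 142 against 246 and 213, and SESN1 was 291 and 225 against 258 and 265. C12orf5, which encodes the fructose bisphosphatase TIGAR, was 113 and 85 against 217 and 117. None of these passed the test in U937.

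**Figure D3:**
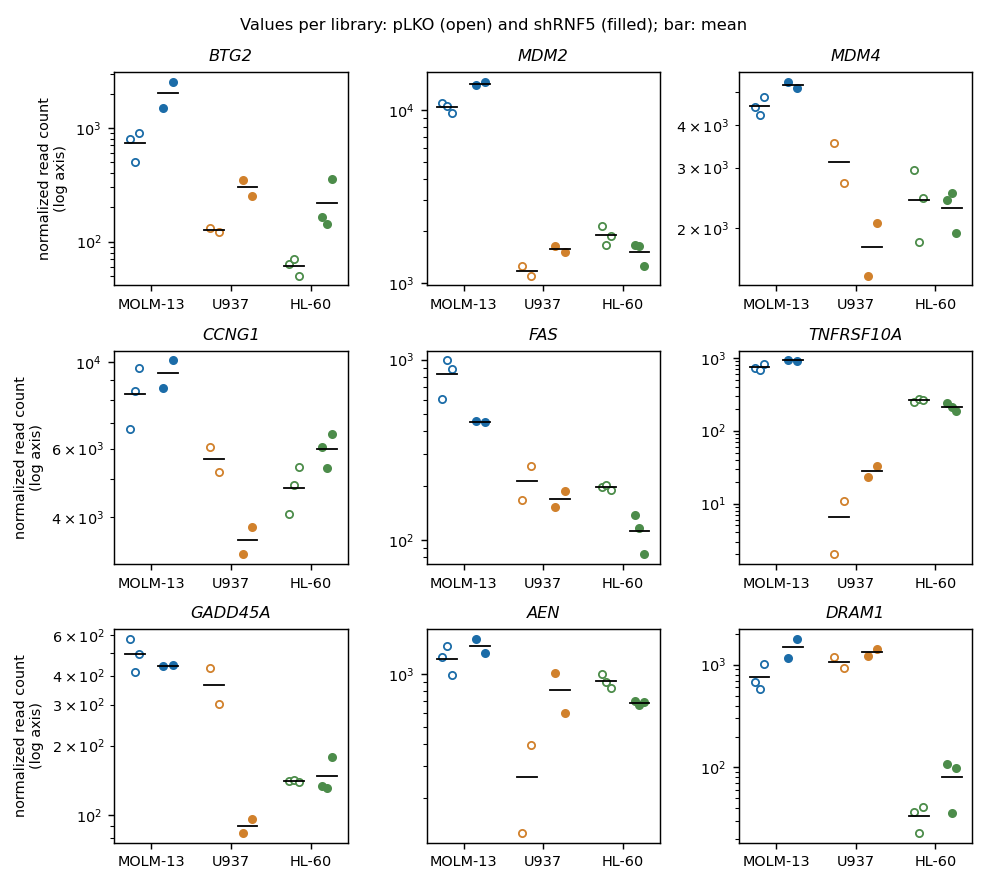
Normalized read count per library of 9 p53 targets in each line, with pLKO as open and shRNF5 as filled points, the group mean as a bar and a log axis with its own range for each gene. BTG2 is higher with shRNF5 in every line, MDM4, CCNG1 and GADD45A are lower with shRNF5 in U937, and FAS is lower in MOLM-13 and HL-60.

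In HL-60, 6 of 29 genes were called up and 4 were called down, beside 13.6% and 12.3% of all 12570 genes. BTG2, TP53INP1, DRAM1, TP53I3, RRM2B and SESN1 rose, and CYFIP2, FAS, RPS27L and AEN fell. The log2 fold change was above 0 in 14 of 29 genes (48.3%) with a median of -0.03, beside 50.2% and 0.00 over all genes, and over 13 alternatives 11 to 16 were above 0.

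BTG2 was 64, 70 and 50 with pLKO and 163, 143 and 353 with shRNF5, or 61.3 ± 10.3 (SD, n = 3) against 219.7 ± 115.9 (SD, n = 3), with a log2 fold change of 1.72 (SE 0.32, limma adjusted p = 0.00613). TP53INP1 went from 6, 6 and 8 to 21, 34 and 27 (1.87, SE 0.37, limma adjusted p = 0.0078), and TP53I3 from 18, 29 and 29 to 42, 56 and 65 (1.08, SE 0.30, limma adjusted p = 0.032). All knockdown libraries lay above all controls in these genes. The last call was lost without shRNF5 replicate 3, at a limma adjusted p of 0.118. DRAM1, at 37, 23 and 41 against 108, 36 and 99, had 1 knockdown library within the control range, and its call (1.13, SE 0.41, limma adjusted p = 0.0751) was lost without any single library other than shRNF5 replicate 2, with limma adjusted p up to 0.24.

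RRM2B rose from 456, 380 and 522 to 892, 584 and 758 (0.71, SE 0.18, limma adjusted p = 0.022). SESN1 rose from 131, 139 and 154 to 227, 200 and 226 (0.62, SE 0.17, limma adjusted p = 0.0263). The groups did not overlap in either gene, and both calls remained under all 15 alternatives.

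CYFIP2 was 470, 396 and 543 with pLKO and 326, 91 and 164 with shRNF5 (-1.45, SE 0.36, limma adjusted p = 0.0198), and FAS was 196, 201 and 190 against 138, 116 and 83 (-0.83, SE 0.21, limma adjusted p = 0.0218). The FAS controls were close together and all knockdown libraries lay below them. Both of these calls also remained under all 15 alternatives. RPS27L fell from 699, 663 and 510 to 480, 374 and 402 (-0.57, SE 0.16, limma adjusted p = 0.0337), and AEN from 995, 907 and 838 to 705, 665 and 691 (-0.41, SE 0.12, limma adjusted p = 0.0404). The RPS27L call was lost without pLKO replicate 1 and that of AEN without pLKO replicate 1 or shRNF5 replicate 2, and both were lost in 1 fit over all 15 libraries, at limma adjusted p up to 0.252 and 0.49 over all alternatives.

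The feedback regulators had 0 calls in HL-60 in the limma fit, with 1 of 5 at an unadjusted p under 0.05. Of all 12570 genes in HL-60, 13.6% were called up, 12.3% down and 4399 had such a p. MDM2 was 2123, 1650 and 1871 against 1645, 1632 and 1258 (-0.32, SE 0.15, limma adjusted p = 0.146), and MDM4 was 2949, 1820 and 2441 against 2410, 2522 and 1927 (-0.05, SE 0.18, limma adjusted p = 0.852). CCNG1 was 4079, 4841 and 5373 against 6045, 5359 and 6552 and PPM1D 475, 452 and 502 against 493, 366 and 448. The controls and knockdown libraries of MDM4, CCNG1 and PPM1D overlapped.

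The TRAIL receptors in HL-60 were lower than their controls without passing the test. TNFRSF10A was 250, 269 and 263 against 237, 210 and 189, and TNFRSF10B was 241, 223 and 313 against 217, 156 and 211 (-0.41, SE 0.20, limma adjusted p = 0.162). GADD45A, which fell in U937, was 141, 142 and 140 against 134, 131 and 178 in HL-60, and its 95% interval for the log2 fold change ran from -0.36 to 0.46. EI24 was 2659, 2904 and 2562 against 2919, 3169 and 2943, PLK3 was 39, 102 and 76 against 48, 51 and 39, and C12orf5 was 164, 156 and 138 against 128, 111 and 136. NINJ1 was 174, 266 and 192 against 316, 219 and 359 (0.49, SE 0.22, limma adjusted p = 0.144).

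The members that were called in no line and in no difference between lines were APAF1, FBXO22, FDXR, PHLDA3, PLK2, POLH, SERTAD1, TNFRSF10B, TRIAP1, ZMAT3 and GDF15, besides PERP and SPATA18 at 0. APAF1 forms the apoptosome, POLH copies past damaged bases, TRIAP1 is a small survival protein, FDXR passes electrons to mitochondrial enzymes, PLK2 is a polo-like kinase and SERTAD1 regulates CDK4 and E2F. Their log2 fold changes where measured ran from -0.41 to 1.16 in MOLM-13, from -0.51 to 0.47 in U937 and from -0.41 to 0.88 in HL-60. The highest of these, GDF15 in MOLM-13 and SERTAD1 in HL-60, had SEs of 0.89 and 0.38 and came from low values, SERTAD1 being 9, 19 and 10 with pLKO and 20, 23 and 26 with shRNF5.

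Whether the response of a gene differed between lines was tested directly, as the difference of its log2 fold changes in 1 limma fit over all 15 libraries and the 11072 genes above 0 in every line. Of the 26 genes that could be tested, 5 differed between MOLM-13 and U937 (15.4% of all genes), 2 when MOLM-13 was set against HL-60 (8.82%) and 12 when U937 was set against HL-60 (37.2%). The lines share libraries between these 3 contrasts. BTG2 passed in none of them.

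The difference was largest for TNFRSF10A, GADD45A and AEN between U937 and HL-60. For GADD45A the U937 fold change was lower than that of HL-60 by 2.04 on the log2 scale (SE 0.31, limma adjusted p = 0.000726), and MOLM-13 exceeded U937 by 1.83 (SE 0.33, limma adjusted p = 0.00846). AEN differed by 2.21 between U937 and HL-60 (SE 0.475, limma adjusted p = 0.00425). TNFRSF10A differed by 2.55 (SE 0.55, limma adjusted p = 0.00418), on U937 values near the floor. The joint fit takes 1 spread per gene for all lines, whereas in U937 alone the TNFRSF10A change had an SE of 0.87 (limma adjusted p = 0.13). All 3 of these U937 and HL-60 differences, and those of CCNG1 and MDM2, passed in all 21 alternatives.

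The feedback regulators differed in opposite directions. The MDM2 response was higher in MOLM-13 than in HL-60 by 0.77 (SE 0.21, limma adjusted p = 0.0507). It also exceeded that of HL-60 in U937, by 0.74 (SE 0.22, limma adjusted p = 0.0206), while MOLM-13 and U937 differed by 0.03 with a 95% interval from -0.45 to 0.52. For CCNG1 the U937 response was below that of HL-60 by 1.03 (SE 0.25, limma adjusted p = 0.00793), and MOLM-13 exceeded U937 by 0.88 (SE 0.26, limma adjusted p = 0.0515). The MDM4 response in MOLM-13 exceeded that in U937 by 1.04 (SE 0.30, limma adjusted p = 0.0486). PPM1D, EI24 and RPS27L responded higher in U937 than in HL-60, by 0.80, 0.90 and 1.40 (limma adjusted p = 0.0476, 0.0359 and 0.0298). PLK3 and C12orf5 did so by 1.27 and 0.98 (limma adjusted p = 0.0839 and 0.0591). MDM4 and SESN1 responded lower, with differences of -0.78 and -0.59 (limma adjusted p = 0.0554 and 0.079). In this pair of lines PLK3, C12orf5, MDM4 and SESN1 lost the call at an adjusted p under 0.05 and without some single HL-60 libraries. The CYFIP2 response in MOLM-13 exceeded that in HL-60 by 1.73 (SE 0.47, limma adjusted p = 0.056).

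FAS, whose knockdown libraries lay below all controls in MOLM-13 and HL-60 and overlapped them in U937, had a difference of -0.02 for MOLM-13 minus HL-60, with a 95% interval from -0.75 to 0.72. BTG2 differed by 0.23 between MOLM-13 and U937 with an interval from -0.88 to 1.35, which leaves room for differences as large as most of those called. The number of genes that differed depended on single libraries. How many of all genes differed without each library was not counted. For MOLM-13 against HL-60 it was 0 without either MOLM-13 shRNF5 library, HL-60 pLKO replicate 1 or 3 or HL-60 shRNF5 replicate 3. For MOLM-13 against U937 it was 3 without MOLM-13 pLKO replicate 2, 2 without MOLM-13 shRNF5 replicate 1, 1 without MOLM-13 shRNF5 replicate 2, U937 pLKO replicate 2 or U937 shRNF5 replicate 1, and 10 without U937 pLKO replicate 3. For U937 against HL-60 it was 6 without U937 shRNF5 replicate 1.

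**Figure D4:**
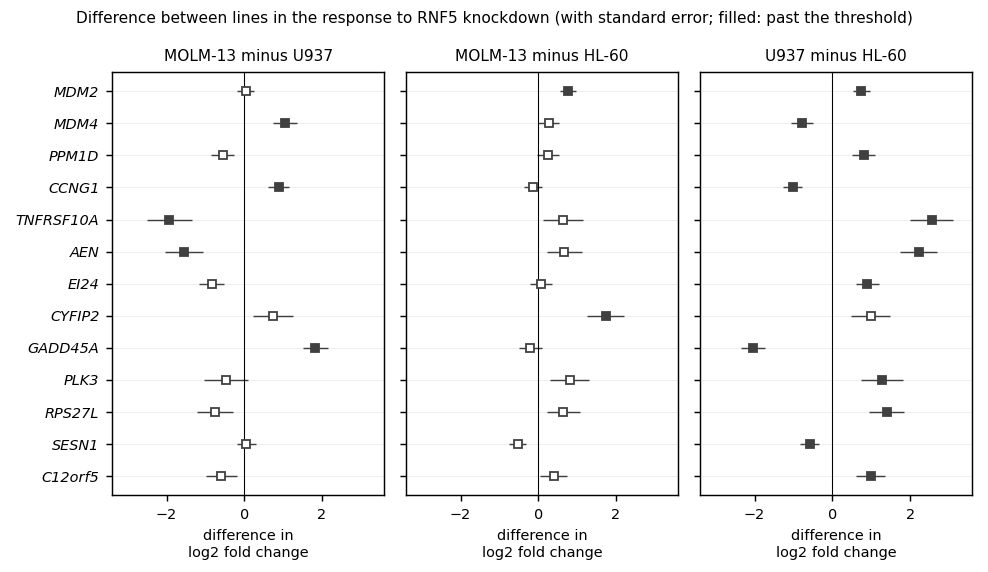
Difference between lines in the log2 fold change of the p53 targets that differed in at least 1 pair of lines, with the standard error as a horizontal bar. Filled squares had a limma adjusted p under 0.1. Of the 26 genes tested, 12 are filled for U937 minus HL-60, with TNFRSF10A at 2.55 and GADD45A at -2.04, and 2 for MOLM-13 minus HL-60, MDM2 and CYFIP2.

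Other genes of the p53 network were read from lists written with earlier results of these data known. CDKN1A rose in all 3 lines, from 4671, 4468 and 6899 to 10758 and 15509 in MOLM-13, from 201 and 115 to 1057 and 744 in U937 and from 12, 7 and 7 to 41, 21 and 39 in HL-60. Its log2 fold changes were 1.30, 2.54 and 1.82, with limma adjusted p of 0.0682, 0.0117 and 0.0115. The MOLM-13 call was lost without pLKO replicate 2, either shRNF5 library or a mean-variance trend and at an adjusted p under 0.05, and the U937 call without pLKO replicate 2 or either shRNF5 library.

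Of 37 other p53 targets, CDKN1A among them, 1 of 32 tested rose and 0 fell in MOLM-13 in the limma fit. At an unadjusted p under 0.05 there were 9, and the median log2 fold change was 0.12. Above 0 were 21 of the 32 (65.6%), beside 50.8% of all genes. Of all 13026 genes in that line, 1.03% rose, 1.01% fell and 2213 had an unadjusted limma p under 0.05. In U937, 3 of 31 rose and 3 fell (median 0.23), beside 6.92% and 8.74% of all genes. There 21 (67.7%) were above 0, beside 50.3%. In HL-60, 7 of 29 rose and 2 fell (median 0.21), beside 13.6% and 12.3% of all genes. There 20 (69%) were above 0, beside 50.2%. The share above 0 thus differed little between lines for these other targets. For the 33 genes it ran from 48.3% in HL-60 to 87.1% in MOLM-13. BBC3, which encodes the BH3 protein PUMA, fell in U937 (-2.002, limma adjusted p = 0.0382) and rose in HL-60 (0.83, limma adjusted p = 0.0751). PMAIP1, which encodes NOXA, rose in HL-60 (0.67, limma adjusted p = 0.0164). Called genes of this list with larger changes included CD82 (2.01, limma adjusted p = 0.00151) and TGFA (1.78, limma adjusted p = 0.00615) in HL-60. In U937 they included ANKRA2 (-2.02, limma adjusted p = 0.0206).

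Of 15 genes for kinases, partners and other regulators of p53, 0 of 13 were called in MOLM-13 in the limma fit. There 4 had an unadjusted p under 0.05, and the median log2 fold change was -0.01. Of all 13026 genes in MOLM-13, 1.03% were called up, 1.01% down and 2213 had such a p. In U937, HIPK2 and EP300 rose and ATM fell among 12 tested, beside 6.92% of all genes up and 8.74% down. In HL-60, 0 of 12 rose and 6 fell, with a median of -0.46, beside 13.6% up and 12.3% down. HIPK2, a kinase that phosphorylates p53, went up by 1.61 in U937 (limma adjusted p = 0.0212) and down in HL-60 (-1.51, limma adjusted p = 0.00394).

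The cell cycle genes that p21 lowers through the DREAM repressor complex numbered 20, all tested in each line. In MOLM-13, 0 were called by limma, 6 had an unadjusted p under 0.05, 1 was above 0 and the median log2 fold change was -0.34. Over all genes in MOLM-13, 1.03% were called up and 1.01% down, 2213 of 13026 had such a p and 50.8% were above 0. In U937, 4 rose and 0 fell with 16 above 0 and a median of 0.40, beside 6.92% up, 8.74% down and 50.3% above 0 over all genes. Those that rose included MKI67 (1.60, limma adjusted p = 0.0179) and MYBL2 (1.01, limma adjusted p = 0.0507). In HL-60, E2F1 and CDC25C rose, beside 13.6% of all genes, 15 were above 0, beside 50.2%, and the median was 0.19.

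Stress-inducible genes were counted as well, since several of the 33 genes are known to answer to such stress without p53. Of 12 targets of ATF4 and CHOP, the factors of the integrated stress response, 0 were called in MOLM-13 in the limma fit. There 4 had an unadjusted p under 0.05, and the median log2 fold change was -0.28. Of all 13026 genes in MOLM-13, 1.03% were called up, 1.01% down and 2213 had such a p. ASNS alone was called in U937, where it fell by 1.22 on the log2 scale, beside 8.74% of all genes down. In HL-60 3 rose and 3 fell, beside 13.6% and 12.3% of all genes. SLC7A11 (1.02), DDIT3, which encodes CHOP (0.94), and PPP1R15A (0.84) rose. TRIB3 (-0.70), ASNS (-0.64) and PSAT1 (-0.54) fell. Of 12 immediate early genes, 0 of 11 were called in MOLM-13 in the limma fit (2 at an unadjusted p under 0.05, median 0.21). The MOLM-13 shares over all genes are those given above. EGR1 and JUN rose in U937, by 1.997 and 1.15, beside 6.92% of all genes up. In HL-60 KLF6 rose by 0.67 while EGR1 and FOSB fell, the latter by 0.96 on the log2 scale, of 8 tested, beside 13.6% of all genes up and 12.3% down. The part of these factors in the changes of the p53 targets was not tested.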

How the data were processed

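RNA-seq values of 15 libraries were analysed, grouped by the construct, line and replicate number in the sample labels. Per the labels and the study's methods, the authors mapped reads to hg19, counted them per gene with featureCounts from Subread and normalized them within each line with SARTools and edgeR. Here the deposited values are treated as a score, since the authors scaled the counts and rounded them to whole numbers. A 3′ end kit is given in the labels and a directional poly(A) kit in the methods. Repeated rows of a gene identifier held 1 value, and no pair of libraries was identical.

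limma 3.58.1 in R 4.3.3 was applied to log2(value + 1) of all genes above 0 in a line, moderated by empirical Bayes along a mean-variance trend. The 33 genes and all lists were chosen with earlier results of these data known. Values per library are given for genes called in any line or in a difference between lines and for MDM2, MDM4, FAS and TNFRSF10B, with RNF5 and CDKN1A as neighbours. From each other list only some called genes are named, not always those with the largest change. The symbol C12orf5 is that of the files. Start sites came from GENCODE on GRCh37, the build of hg19. Read totals were estimated from gaps between the rounded values, and the depth limits low genes most. On data simulated with 200 changed genes, the share recovered was 90% for MOLM-13, 65% for U937 and 97.5% for HL-60. Of the calls, 9.5%, 11% and 11% were false. The changed genes were taken away from the floor and moved by at least 1 on the log2 scale, with normal noise of the spread that limma fitted. These shares therefore do not hold for smaller changes, which most of the 33 genes had, or for low genes. Alternatives were another pseudocount (0.5 or 10), scaling, threshold or filter (a mean of 50), no trend, 1 joint fit, the replicate block and the omission of single libraries. Results for 1 gene are not reported here.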

Additional observations from a re-analysis of the deposited data

Results flagged for a closer look

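Values are included here where the test of the difference between lines passed at a limma adjusted p under 0.1, and each is the log2 fold change of the line named first minus that of the other. No group held 4 libraries, so no search for outlying libraries was made. Between MOLM-13 and U937 the differences were 1.04 for MDM4, 0.88 for CCNG1, -1.93 for TNFRSF10A, -1.55 for AEN and 1.83 for GADD45A. Between MOLM-13 and HL-60 they were 0.77 for MDM2 and 1.73 for CYFIP2. Between U937 and HL-60 the feedback regulators differed by 0.74 for MDM2, -0.78 for MDM4, 0.80 for PPM1D and -1.03 for CCNG1. In the same pair, the cell death genes TNFRSF10A, AEN and EI24 differed by 2.55, 2.21 and 0.90 and the stress genes GADD45A and PLK3 by -2.04 and 1.27. RPS27L, SESN1 and C12orf5 differed by 1.40, -0.59 and 0.98. The U937 libraries of TNFRSF10A held between 2 and 33, so its differences rest on values near the floor. AEN is the only one of the 33 genes that was called in opposite directions in 2 lines.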

How the results depend on the processing

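The number of p53 targets called up in MOLM-13 (1) was 0 without a mean-variance trend and at an adjusted p under 0.05, and 0 to 2 when single libraries were left out. The number called down (0) was 0 to 1, the gene being FAS. In U937 the 4 called up became 0 without a trend and at an adjusted p under 0.05, and 9 in 1 fit over all 15 libraries. They were 0 to 4 without single libraries. The 3 called down became 1 without a trend, 1 at an adjusted p under 0.05 and 0 to 2 without single libraries. In HL-60 the 4 called down became 2 in 1 fit over all 15 libraries, without RPS27L and AEN, and the 6 called up were 4 to 8 throughout. The cause was not tested, apart from the loss of calls at the stricter threshold and with fewer libraries.

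Differences between MOLM-13 and U937 (5) became 2 and those between MOLM-13 and HL-60 (2) became 0 at an adjusted p under 0.05. Without single libraries they ranged from 1 to 10 and from 0 to 3, and those between U937 and HL-60 (12) from 6 to 14. Same-numbered libraries did not deviate together in every pair, at correlations of 0.505, 0.156 and -0.109 in HL-60 and -0.173 and -0.53 in MOLM-13, so the numbers of the labels were not taken to pair the samples. Not every HL-60 library correlated best with its own number. With the replicate block 3 genes were called up in MOLM-13 (BTG2, DRAM1 and TP53INP1), and 6 up and 5 down in HL-60. The deposited files number the MOLM-13 knockdown libraries differently from the labels. Pairs by those numbers correlated at 0.53 and 0.281, and a crossed block by them, chosen after seeing the data, gave 7 up and 1 down. The deviations of the 2 MOLM-13 shRNF5 libraries mirror each other, so each pLKO library correlates with them at equal and opposite values. Both MOLM-13 blocks used 2 libraries a group, which leaves little to estimate the spread from. How many of all genes were called with any of these blocks was not counted either. U937 shares a single replicate number between its groups, with a correlation of 0.256, so no block could be fitted there. Of 2855 values of single genes under these alternatives, 0 called values reversed, 125 lost a call and 49 gained one, and 83 values without a call changed sign. Depth limits GDF15, SERTAD1, TP53INP1 and TP53I3 most, and TNFRSF10A in U937.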
